A study of Rattus norvegicus with 10 samples.

Results

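Lard, olive oil and coconut fat were the 3 non-marine fats of a feeding study in male Wistar rats, an outbred laboratory strain. Fat made up 42% of dietary energy, feeding lasted 12 weeks, and livers were sampled after an overnight fast. The 6 arrays of these diets (2 for each fat) were compared with the 2 arrays of rats on standard chow, out of 10 arrays in the series. The remaining 2 arrays, of rats given fish oil (cod liver oil in the design text), stayed out of the contrast and served only to ask whether a difference was particular to the 3 fats. The question was what all 3 fats had in common against chow. No fat share was given for chow, so the kind of fat, its amount and whatever it replaced in the diet cannot be told apart. The labels do not say whether RNA of several rats was pooled, and p-values therefore measure only the spread between these samples.

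In the fasted liver, fatty acids from adipose tissue are oxidised and turned into ketone bodies, while amino acids are stripped of nitrogen by aminotransferases and feed gluconeogenesis and the urea cycle. Fatty acid synthesis, driven after a meal by insulin and the transcription factor SREBP-1, is then low. Long-term feeding of fat is known to change the load of both fuels, and dietary carbohydrate is known to raise the lipogenic enzymes.

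Each array gave 1 MAS5 signal, a linear brightness scaled so that the trimmed mean of every array is about 100, for each probe set. Median signals were 28.7 to 31.9, and 36.8 on the second lard array. The 2 arrays of a diet had correlations of r = 0.934 to 0.949. An array's mean correlation with the arrays of other diets was 0.927 to 0.942. For lard array 1 and olive oil array 2 it was above that with the array of the same diet. The number of arrays limits the precision. Hepatocyte markers were bright on all arrays, with a summed signal of 64972 to 75720 over 9 genes with the 3 fats and of 65842 to 67831 with chow. Fold changes are differences of log2(signal + 3.1), the mean of the 3 fats minus chow, with their standard error (SE), a scale on which changes of dim genes are understated. A probe set passed where limma's Benjamini-Hochberg adjusted p over all 18625 tested probe sets was under 0.05.

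There were 10 probe sets that passed (0.0537% of those tested), each of a different named gene. Of these, 2 were higher with the fats (0.0107%) and 8 were lower (0.043%). In each of the 10, all 6 fat arrays lay on one side of both chow arrays. Of all tested probe sets, 4.83% had the 6 arrays above chow and 4.58% below. A small p in the same contrast favours such a separation, so it is no further support. Of the 1405 probe sets at an unadjusted p under 0.05, 921 had it. In all 10, lard, olive oil and coconut fat each differed from chow in the same direction, which follows from that separation and adds nothing to it. The genes that fell were 3 enzymes of amino acid breakdown (Sds, Got1 and Gpt), 2 drug-metabolising enzymes (Cyp3a9 and Ugt2b), the methyltransferase gene Mettl7b, the sterol regulator Insig2 and the endotoxin receptor gene Cd14. Those that rose were the protease inhibitor gene Slpi and the transcription regulator gene Tsc22d1. At an unadjusted p under 0.05 there were 1405 probe sets (7.54%), 806 higher and 599 lower, and over all probe sets the median fold change was 0.0067. The chow side rests on 2 arrays. With chow array 1 left out, 2 probe sets passed, of Nr0b2 and Cfp (named after their values were seen), and none of the 10 was among them, and with chow array 2 left out, 10 passed, of which Cyp3a9 and Tsc22d1 were among the 10. All 10 kept their direction with each array left out. The number of probe sets that passed was 5 without either lard array, 6 without olive oil array 2 or either coconut fat array and 17 without fish oil array 2. Over the 10 fits that left out 1 array each, Cyp3a9 passed in 9 (all but that without chow array 1), Sds, Got1 and Gpt in 8 (all but those without a chow array) and Tsc22d1 in 8 (all but those without olive oil array 2 or chow array 1). Slpi and Cd14 passed in 4 of these fits, Mettl7b in 3, Ugt2b in 2 and Insig2 in 1, and each of these 5 missed the threshold without either lard array and without either chow array (limma adjusted p of at most 0.229). Slpi also missed it without olive oil array 2 or fish oil array 1, Cd14 without either coconut fat array, Mettl7b without olive oil array 2 or either coconut fat array, Ugt2b without any one of the 6 fat arrays, and Insig2 without any array but fish oil array 2.

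**Figure D1:**
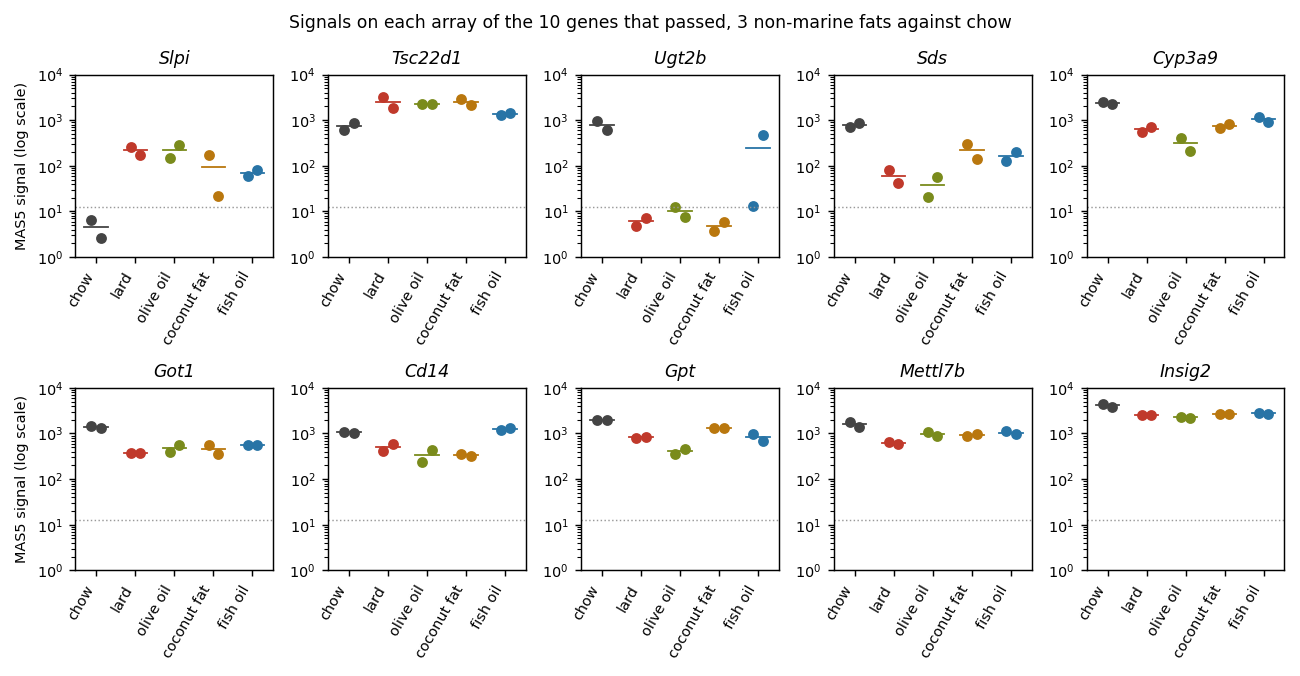
MAS5 signal (log scale) of the 10 genes that passed, on each array, by diet. Points are single arrays, short bars the mean of a diet's 2 arrays and the dotted line the background bound of 12.8; for Slpi and Tsc22d1 all 6 arrays of the 3 fats lie above both chow arrays, for the other 8 genes below.

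Sds, Got1 and Gpt, which take amino groups off amino acids, fell with the 3 fats. Sds, serine dehydratase, which turns serine into pyruvate, gave signals of 80.7 and 40.9 on the lard, 20.9 and 55.5 on the olive oil and 296 and 139.8 on the coconut fat arrays, against 694 and 876 with chow. The lowest array was one of olive oil, the highest one of coconut fat, and all 6 were below both chow arrays. The fold change was -3.33 (SE 0.38, 10.1-fold lower, limma adjusted p = 0.0133). Got1, the cytosolic aspartate aminotransferase, gave 375 and 367 on the lard, 399 and 566 on the olive oil and 572 and 350 on the coconut fat arrays, against 1429 and 1288 with chow. Its 3 fats were close to each other, with single-fat differences from chow of -1.86, -1.51 and -1.59, and the mean difference was -1.65 (SE 0.19, 3.15-fold lower, limma adjusted p = 0.0133). Gpt, the alanine aminotransferase, gave 813 and 847 on the lard, 346 and 459 on the olive oil and 1326 and 1326 on the coconut fat arrays, against 2004 and 1958 with chow. Here the fats stood in steps, olive oil lowest and coconut fat nearest to chow, with a mean difference of -1.38 (SE 0.15, 2.6-fold lower, limma adjusted p = 0.0133). Gpt2, which encodes the mitochondrial alanine aminotransferase, had a difference of -0.02 that did not pass (limma adjusted p = 0.992).

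The list of amino acid breakdown and urea cycle genes, to which the 3 enzymes belong, lay mostly below chow. Of 30 members, 27 had a fold change below 0, and the median was -0.34, beside -0.0022 and 50.3% below 0 over all 10470 genes taken by their brightest probe set. On 16 members all 6 fat arrays were below both chow arrays (5.06% of all genes), and on 0 members above both (4.82% of all genes). The 3 that passed compare with 8 of all genes (0.0764%), since Ugt2b and Insig2 passed only by a probe set that is not their brightest. As for all lists here, the members were chosen with earlier results of these data known. These counts therefore describe the list and do not test it. For lard, olive oil and coconut fat the medians were -0.34, -0.40 and -0.20. Next in size came Asl, argininosuccinate lyase of the urea cycle, at 563 to 900.3 with the fats against 1884 and 1249.6 with chow (-1.10, SE 0.23, limma adjusted p = 0.228). Aass, the first enzyme of lysine breakdown, was at 1884 to 2171 against 3361 and 3356 (-0.71, SE 0.12, limma adjusted p = 0.0965). These ranges do not overlap, but neither gene passed. Hal, histidine ammonia-lyase, and Gls2, liver glutaminase, had differences of -0.77 and -0.73, and the glycine N-methyltransferase Gnmt one of -0.62. None of these passed. Cps1, which brings ammonia into the urea cycle, was at 5998 to 6618 against 6686 and 7016 (-0.11), and Otc, its next enzyme, at 0.16, so the difference was not of one size along the cycle. Above 0 were Bckdha, Otc and Hgd, at 0.35, 0.16 and 0.03. With chow array 1 left out, 26 of the 30 lay below 0 and the median was -0.40, and with chow array 2 left out these values were 23 and -0.25.

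Of the drug-metabolising enzymes, Cyp3a9 and Ugt2b fell with all 3 fats. Cyp3a9, a cytochrome P450 of the endoplasmic reticulum that oxidises steroids and drugs, gave 562 and 704 on the lard, 404 and 212 on the olive oil and 657 and 812 on the coconut fat arrays, against 2454 and 2309 with chow. All fat arrays were far below chow, most of all those of olive oil. The fold change was -2.21 (SE 0.21, 4.62-fold lower, limma adjusted p = 0.0102), the smallest p among the 18625 probe sets. Cyp3a18 and Cyp3a2, related P450s whose sequences can share probes, had differences of -0.74 and -0.36 that did not pass.

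Ugt2b, which carries the older name Ugt2b2 and conjugates androgens with glucuronic acid, was at background level with the 3 fats on the probe set that passed. Its signals were 4.9 and 7.2 on the lard, 12.8 and 7.4 on the olive oil and 3.7 and 5.8 on the coconut fat arrays, against 975 and 614 with chow. All 6 fat arrays were at or below 12.8, the highest signal of a bacterial control sequence that was taken as the background bound, so the gene was at least 60.4-fold lower (limma adjusted p = 0.0448). A second, brighter probe set had 19.9 to 68 with the fats against 6093 and 5309 with chow (fold change -7.20, limma adjusted p = 0.228) and did not pass. The 2 fish oil arrays stood apart from each other on both probe sets, at 13.1 and 472 on the first and at 13.1 and 5645 on the second, 1 at the level of the fats and 1 near that of chow. Wistar colonies are known to carry a deletion of the androsterone UDP-glucuronosyltransferase gene for which some rats are homozygous. Whether the rats of these groups differed in genotype was not tested. Close relatives such as Ugt2b1 (-0.84, limma adjusted p = 0.7) may share probe sequence, which makes the assignment to 1 gene uncertain.

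Mettl7b, a methyltransferase of the endoplasmic reticulum and lipid droplets that acts on thiol compounds, gave 641 and 585 on the lard, 1066 and 886 on the olive oil and 879 and 982 on the coconut fat arrays, against 1750.1 and 1420.4 with chow. The lard arrays were lowest, and all 6 were below chow (-0.94, SE 0.13, 1.92-fold lower, limma adjusted p = 0.041). Of 20 listed drug-metabolising genes, 17 lay below 0 with a median of -0.28, and on 4 members the 6 fat arrays were all below chow (5.06% of all genes). The medians were -0.31 for lard, -0.35 for olive oil and -0.05 for coconut fat. With coconut fat 8 of the 20 lay above 0, against 4 with lard and 2 with olive oil. Among the 20, Cyp3a9 alone passed. Por, the electron donor of the P450s, was at -0.78 (limma adjusted p = 0.543), but its chow arrays were far apart, at 993 and 431. Fmo1, a flavin monooxygenase, was at -0.73, and Nr1i2 and Nr1i3, the receptors PXR and CAR that sense foreign compounds, at -0.15 and -0.25, without passing. Cyp2c11, the main male P450 of rat liver, was at -0.03. Above 0 in this list were Aldh1a1 (1.36), Cyp2c12 (1.00) and Ephx1 (0.01), none of which passed.

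Insig2, a membrane protein that holds the SREBP transcription factors back in the endoplasmic reticulum when sterols are plentiful, gave 2479 and 2513 on the lard, 2310.4 and 2193 on the olive oil and 2685 and 2671 on the coconut fat arrays, against 4509 and 3712 with chow. The 6 fat arrays spanned a narrow range and none overlapped chow. The fold change was -0.73 (SE 0.10, 1.66-fold lower, limma adjusted p = 0.0448), and a second, brighter probe set had -0.48 without passing (limma adjusted p = 0.298). Insig1, its relative and a target of SREBP, was at 0.17 (limma adjusted p = 0.973).

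Promoters of genes that passed are shown for the sequence before their starts. RefSeq sequence of the GRCr8 build was at hand for 7 of the 10, namely Tsc22d1, Ugt2b, Cyp3a9, Got1, Cd14, Mettl7b and Insig2, as the 250 bases before the annotated start. Searched on both strands were 5 motifs. The cAMP response element was sought by its half-site TGACG. The E-box was sought as CACGTG, whose end bases TGACG can share. The half-site of the glucocorticoid receptor was sought as AGAACA. The core promoter boxes were sought as TATAAA and, for nuclear factor Y, as CCAAT. The last was found in 5 of the 7 (Tsc22d1, Cyp3a9, Got1, Cd14 and Insig2), and in 34.0% of 33469 promoters of the same length. The Got1 promoter held 6, at 233, 217, 172, 129, 77 and 36 bases before the start. TGACG was in the Tsc22d1 promoter (18.2% of all), AGAACA in that of Cyp3a9 (17.5%), TATAAA in that of Ugt2b (12.9%) and CACGTG in none of the 7 (5.59%). These shares are over single promoters, while a gene was counted where any of its annotated starts matched. The promoters of Got1, Cyp3a9, Insig2 and Tsc22d1 read 5′ to 3′ on the gene's strand, with matches in capitals, and for Tsc22d1 the one of 2 annotated starts that holds a match is given. A match is a run of letters and was not tested as a binding site.
Got1 (chr1:252329872-252330121, minus strand): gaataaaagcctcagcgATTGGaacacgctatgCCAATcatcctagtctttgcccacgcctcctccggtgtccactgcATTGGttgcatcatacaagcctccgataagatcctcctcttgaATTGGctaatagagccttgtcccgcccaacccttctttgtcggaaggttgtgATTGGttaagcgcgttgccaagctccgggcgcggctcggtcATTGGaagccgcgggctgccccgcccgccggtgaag
Cyp3a9 (chr12:21960161-21960410, minus strand): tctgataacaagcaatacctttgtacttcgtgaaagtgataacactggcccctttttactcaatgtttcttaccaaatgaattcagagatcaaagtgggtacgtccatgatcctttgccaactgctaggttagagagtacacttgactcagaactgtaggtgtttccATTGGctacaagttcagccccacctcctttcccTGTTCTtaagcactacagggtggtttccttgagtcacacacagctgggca
Insig2 (chr13:35040099-35040348, minus strand): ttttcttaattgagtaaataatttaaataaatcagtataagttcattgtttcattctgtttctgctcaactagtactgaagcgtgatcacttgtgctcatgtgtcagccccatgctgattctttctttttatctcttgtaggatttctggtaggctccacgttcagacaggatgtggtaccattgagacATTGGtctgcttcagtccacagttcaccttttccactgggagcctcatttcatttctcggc
Tsc22d1 (chr15:58256751-58257000, plus strand): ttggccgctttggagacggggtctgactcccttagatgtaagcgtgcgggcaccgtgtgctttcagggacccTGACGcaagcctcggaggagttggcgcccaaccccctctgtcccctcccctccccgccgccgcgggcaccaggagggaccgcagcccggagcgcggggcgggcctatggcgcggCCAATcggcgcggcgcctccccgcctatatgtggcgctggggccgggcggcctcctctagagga

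Cd14, the receptor that hands bacterial lipopolysaccharide to TLR4 and is made by macrophages and hepatocytes, gave 422 and 579 on the lard, 237 and 428 on the olive oil and 356 and 321 on the coconut fat arrays, against 1100.3 and 1045 with chow. All 6 fat arrays were below both chow arrays, the first olive oil array the most. The fold change was -1.50 (SE 0.20, 2.83-fold lower, limma adjusted p = 0.035). Of 14 genes of endotoxin and cytokine sensing, 5 lay above and 9 below 0, with a median of -0.09 (-0.01 without chow array 1 and -0.24 without chow array 2), and Cd14 alone passed. Its partners Tlr4 and Ly96 were at 0.10 and -0.004, and Lbp, the plasma protein that loads Cd14, was at 0.34. Macrophage markers were followed beside it. Of 13, 10 lay below 0 with a median of -0.04, and their summed signal was 5419 to 6708 with the fats, 7017 to 7580 with chow and 5307 to 5783 with fish oil. Cd68, Csf1r, Adgre1 and C1qb were between -0.04 and 0.10, and Cd5l and Clec4f, which mark Kupffer cells, at -0.40 and -0.24. The sums include Cd14 and Cd74. In whole liver, fewer cells of a type and less RNA per cell cannot be told apart.

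Slpi, a secreted inhibitor of leukocyte proteases, was below the background bound with chow, at 6.5 and 2.6, and gave 262 and 174 on the lard, 152 and 289 on the olive oil and 168 and 21.3 on the coconut fat arrays. The second coconut fat array was far below the other 5. Slpi was at least 10.9-fold higher with the fats (limma adjusted p = 0.035). It belongs to a list of 20 acute phase and complement genes, of which 18 lay above 0 and 5 had all 6 fat arrays above chow (4.82% of all genes). The list's median was 0.16 (lard 0.04, olive oil 0.28 and coconut fat 0.13), and no other member passed. With lard 13 of the 20 lay above 0, against 18 with olive oil and 19 with coconut fat. Il6r and Stat3, which carry the interleukin-6 signal to acute phase genes, were at 0.65 and 0.63 (limma adjusted p = 0.473 and 0.445), while Crp and Orm1 were at -0.09 and -0.28. Hp, Fgg and C3, the brightest genes of the list, were at 0.07, 0.10 and 0.13. Of 4 neutrophil markers on the array, Itgam was at or below the bound on all arrays, and their summed signal was 57 to 166.9 with the fats and 64 to 75.7 with chow. Their part in the Slpi difference was not tested.

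Tsc22d1, a leucine zipper protein induced by TGF-beta, gave 3152 and 1830 on the lard, 2269.8 and 2317 on the olive oil and 2914 and 2114 on the coconut fat arrays, against 613 and 867 with chow. The lowest fat array was above the higher chow array by more than the gap between the chow arrays. The fold change was 1.71 (SE 0.21, 3.27-fold higher, limma adjusted p = 0.0174), with 1.72, 1.65 and 1.76 for lard, olive oil and coconut fat. A dimmer probe set of the gene had 0.38 and did not pass (limma adjusted p = 0.794), and 2 more were too dim to test.

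The genes next in rank did not pass. Higher with all 6 fat arrays than with chow were Rprm, a cell-cycle arrest gene downstream of p53 (1.28, SE 0.20, limma adjusted p = 0.083), and Rhob, a small GTPase (1.25, SE 0.20, limma adjusted p = 0.0858). Rprm gave 86.9 and 67.4 on the lard, 205 and 223 on the olive oil and 80 and 71.7 on the coconut fat arrays, against 34.3 and 53 with chow, so olive oil stood above the other fats. Pyroxd2 (1.57), Dipk2a (1.16), Sez6 (1.37) and the kinase gene Dyrk2 (1.21) had limma adjusted p-values of 0.0858 to 0.111. Brighter probe sets of Dyrk2 had smaller differences, 0.45, 0.53 and 0.57 (limma adjusted p = 0.539, 0.843 and 0.433). Aldh1a1, which oxidises retinaldehyde to retinoic acid, gave 870.2 and 985 on the lard, 1112 and 599.5 on the olive oil and 920.5 and 1278 on the coconut fat arrays, against 290.5 and 455 with chow (1.36, SE 0.23, limma adjusted p = 0.0965). Prps2, which makes phosphoribosyl pyrophosphate, was at or below the bound with chow and at least 3.34-fold higher with the fats (limma adjusted p = 0.106), while its other probe sets had -0.10 and 0.79. Lower with all 6 fat arrays were Wsb1, a substrate receptor of a ubiquitin ligase (-1.36, SE 0.20, limma adjusted p = 0.0555), and Nnmt, which methylates nicotinamide (-0.98, SE 0.16, limma adjusted p = 0.0858).

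**Figure D2:**
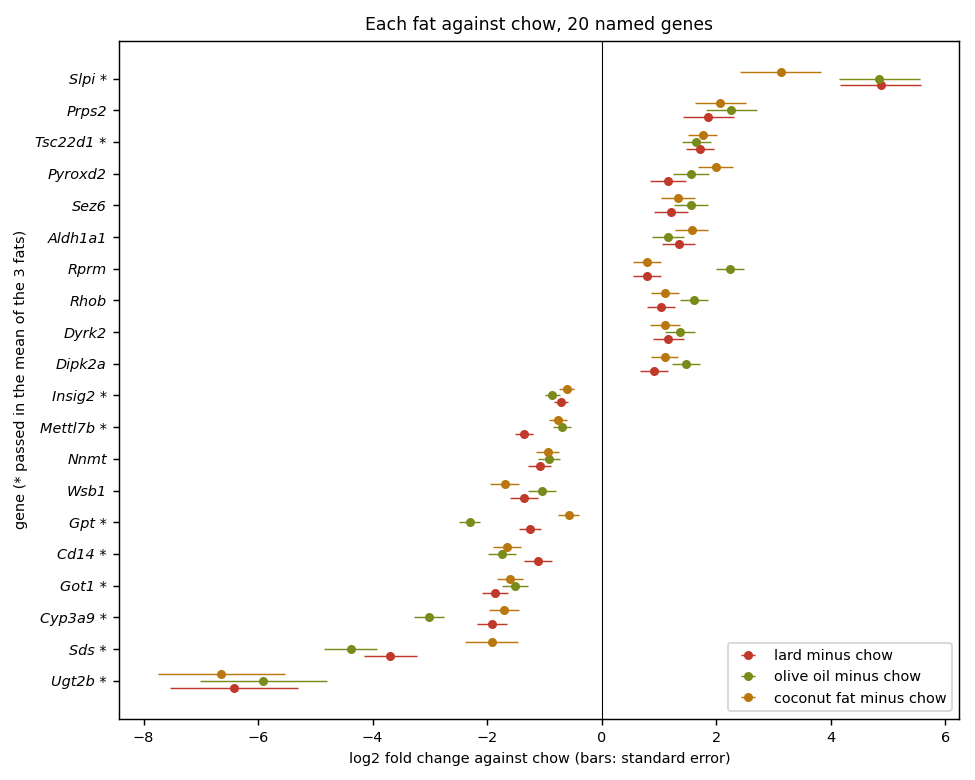
Log2 fold change against chow of lard, olive oil and coconut fat for the 20 named genes; points are estimates, bars standard errors, and an asterisk marks the 10 genes that passed in the mean of the 3 fats. Every gene lies on one side of 0 with all 3 fats because only such genes were chosen for naming. The fats lie far apart for Sds, Gpt and Rprm and close together for Got1, Tsc22d1 and Insig2. For Slpi, Prps2 and Ugt2b, with 1 side at background, the plotted estimates are not measured folds.

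Genes of fatty acid synthesis and desaturation had the highest median of the 24 pathway lists with both chow arrays in. All 21 members lay above 0 with each of the 3 fats, and the median was 0.90 (lard 0.63, olive oil 1.40 and coconut fat 0.70). None passed, 12 had an unadjusted p under 0.05 (7.54% of all probe sets), and on 3 members, Srebf1, Slc25a1 and Mlxipl, all 6 fat arrays lay above both chow arrays (4.82% of all genes). Srebf1, which encodes SREBP-1, gave 1264 and 1162 on the lard, 1441 and 1959 on the olive oil and 1836 and 1854 on the coconut fat arrays, against 206 and 848 with chow (1.88, SE 0.47, limma adjusted p = 0.306). Fasn, fatty acid synthase, gave 823 and 521 on the lard, 1386 and 3788 on the olive oil and 1842 and 579.6 on the coconut fat arrays, against 106 and 1097 with chow (1.75, SE 0.95, limma adjusted p = 0.738). Scd, stearoyl-CoA desaturase, gave 5184 and 3915 on the lard, 7078 and 6928 on the olive oil and 6487 and 4893 on the coconut fat arrays, against 548 and 5610.4 with chow (1.68, SE 0.67, limma adjusted p = 0.579). In both genes the first chow array was far below all fat arrays and the second lay among them. The first chow array was below the second on 21 of 21 members, all 6 fat arrays lay above the first on 21 members and above the second on 3. With chow array 1 left out, 17 members lay above 0 and the median was 0.15, below those of interferon response (0.62) and ketone body genes (0.46). With chow array 2 left out, 21 lay above 0 and the median was 1.63. Fads1 was then at 2.53, Scd at 3.35 and a second, dimmer probe set of Srebf1 at 2.41, named after their values were seen. With both chow arrays in, this Srebf1 probe set was at 1.56 (SE 0.37, limma adjusted p = 0.283). Pnpla3, a lipid droplet protein and SREBP-1 target, had the largest difference of the list, 3.28 (SE 0.83, limma adjusted p = 0.321), with 168 and 209.6 on the lard, 479.9 and 1767 on the olive oil and 399 and 24.4 on the coconut fat arrays, against 11.2 and 49 with chow. The fat arrays of this gene differed among themselves by more than the 2 chow arrays did, and the second coconut fat array lay between the chow arrays.

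**Figure D3:**
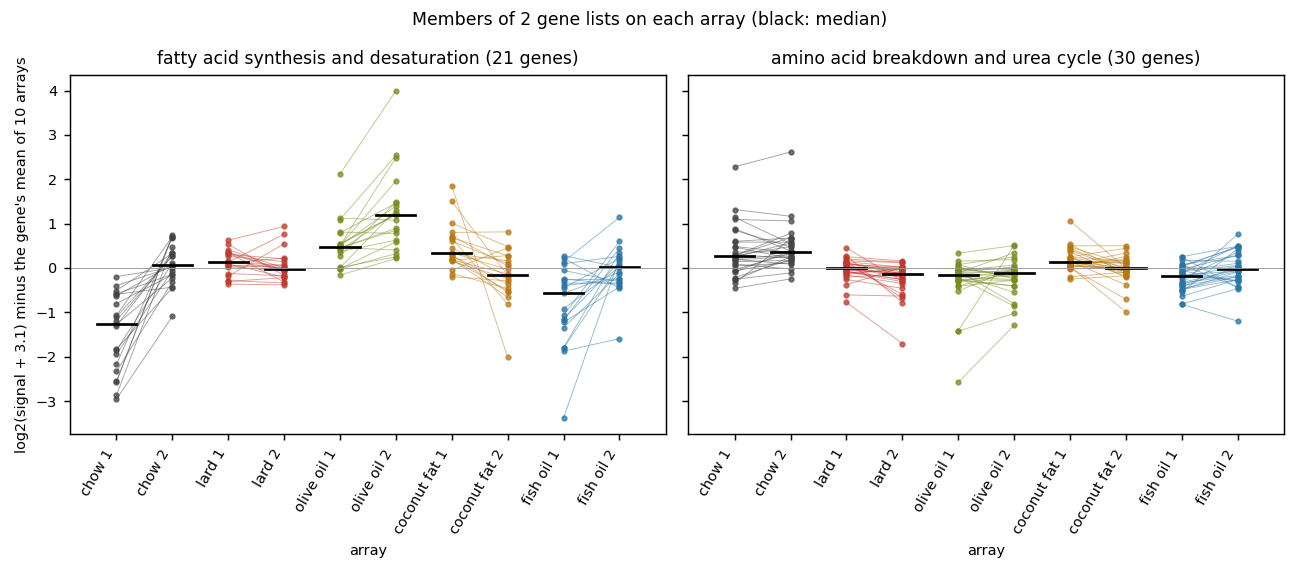
Difference of log2(signal + 3.1) from the gene's own mean over 10 arrays for the members of the fatty acid synthesis list (21 genes, left) and of the amino acid list (30 genes, right), by array. Points are genes, thin lines join a gene's values within a diet and black bars are medians; on the left chow array 1 lies far below chow array 2, on the right both chow arrays lie above the 6 arrays of the 3 fats.

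Cholesterol synthesis genes depended on the chow array as well. Of 20 members, 9 lay above and 11 below 0 with a median of -0.09, and none passed. The first chow array was below the second on 20 of 20. With chow array 1 left out, 20 of 20 lay below 0 and the median was -0.49, and with chow array 2 left out, 14 lay above 0 and the median was 0.46. The direction of this list against chow therefore differed with the chow array used. Tm7sf2, a sterol reductase, was the 1 member with all 6 fat arrays below both chow arrays (5.06% of all genes). It gave 440.5 and 598 on the lard, 727 and 232 on the olive oil and 537 and 375 on the coconut fat arrays, against 886 and 1285 with chow (-1.22, SE 0.34, limma adjusted p = 0.37).

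For fatty acid oxidation the median was 0.03 over 19 mitochondrial genes (11 above and 8 below 0) and -0.0084 over 14 peroxisomal genes (7 above and 7 below), and none passed. These medians were 0.16 and 0.18 without chow array 1 and -0.08 and -0.02 without chow array 2. All 4 tested genes of ketone body metabolism lay above 0 with a median of 0.42, and 3 had all 6 fat arrays above chow (4.82% of all genes). Acat1, mitochondrial acetoacetyl-CoA thiolase, was at 1492 to 2347 against 1479 and 1455 (0.37, limma adjusted p = 0.543), and Bdh1, which makes 3-hydroxybutyrate, at 1076 to 1600.4 against 1048 and 939 (0.46, limma adjusted p = 0.544). Acot1, an acyl-CoA thioesterase that answers to PPAR-alpha, was at or below the bound on both chow arrays and at 17.6 to 29.6 with the fats (limma adjusted p = 0.347). Fgf21, a hormone of the fasting response, gave 102 and 62.4 on the lard, 86 and 196 on the olive oil and 28.8 and 119.7 on the coconut fat arrays, against 16.3 and 45.3 with chow, groups that overlap. In gluconeogenesis 5 of 11 genes lay above 0, Got1 alone passed, and Pck1, the enzyme that controls the pathway's flux, was at -0.10. Pc, pyruvate carboxylase, was at 0.44 and Fbp1, fructose bisphosphatase, at -0.29, without passing.

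**Figure D4:**
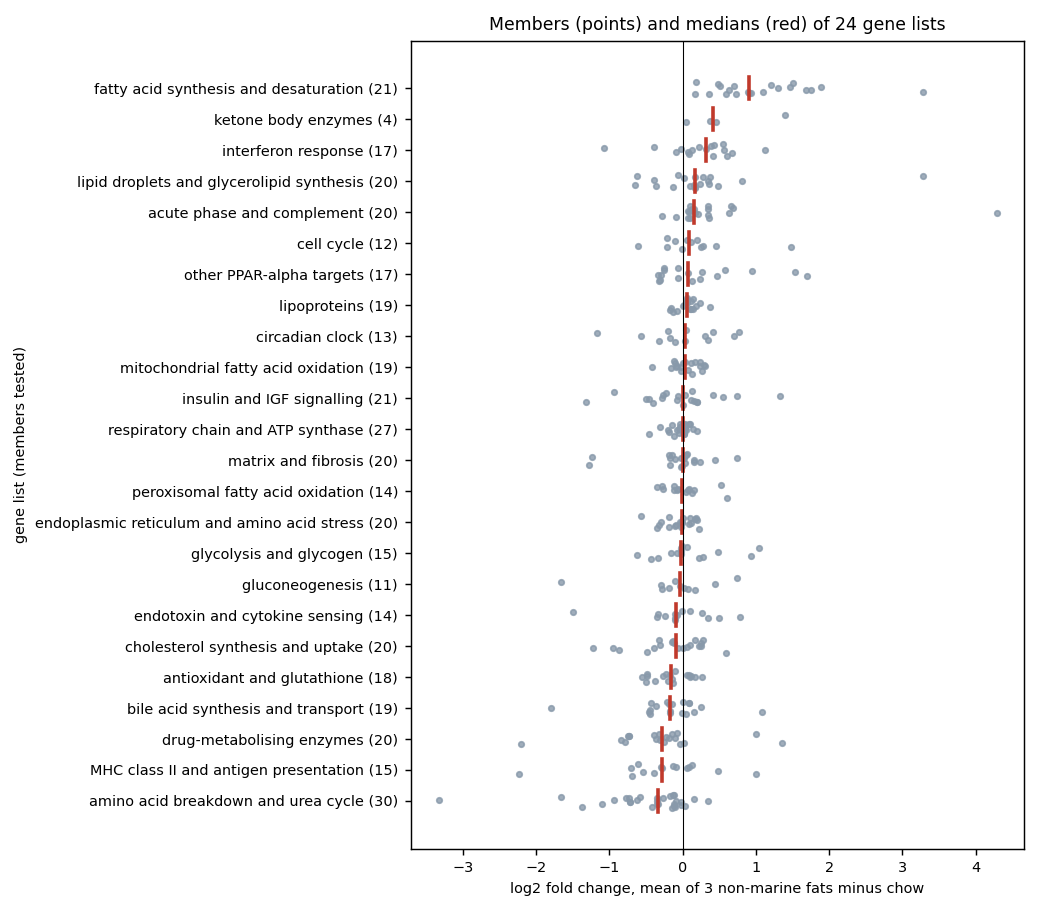
Log2 fold change, mean of the 3 fats minus chow, of the tested members (points) and the median (red bar) of 24 gene lists, ordered by median. With both chow arrays in, fatty acid synthesis lies highest with a median of 0.90 and amino acid breakdown lowest with -0.34.

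Of 17 interferon-response genes, 13 lay above 0 with a median of 0.32, and none passed. The chow arrays differed here as well, the median being 0.62 without chow array 1 and -0.11 without chow array 2. Ifit2 was the 1 member with all 6 fat arrays above chow (4.82% of all genes), at 253 to 481 against 156 and 130.2 (1.13, SE 0.22, limma adjusted p = 0.161). Of 15 genes of antigen presentation, most of them of MHC class II, 10 lay below 0 with a median of -0.28, and none passed. Without chow array 1 the median was -0.59 with 13 below 0, and without chow array 2 it was -0.0031 with 8 below 0. Cd74, the invariant chain, was at 569.8 to 974 against 929.6 and 1275 (-0.55, limma adjusted p = 0.389). The 2 probe sets of RT1-Bb, a class II chain that varies between rat haplotypes, ran in opposite directions, at -2.24 and 3.31 (limma adjusted p = 0.49 and 0.324), so that no direction can be given for the gene. Igfbp2, which binds insulin-like growth factors, was at 35.2 and 53.2 on the lard, 16.8 and 24.1 on the olive oil and 41.4 and 45.9 on the coconut fat arrays, against 92.3 and 86.5 with chow (-1.32, SE 0.25, limma adjusted p = 0.136). Igfbp1, whose transcript insulin lowers, had chow signals of 1359 and 146, far apart, and 89.4 to 314 with the fats. The respiratory chain list (27 genes) had a median of 0.0048, matrix genes (20) one of -0.00051, and bile acid genes (19) one of -0.17, and none of their members passed. Without chow array 1 these medians were -0.17, 0.08 and -0.0093, and without chow array 2 they were 0.15, -0.02 and -0.20. In the respiratory chain list 24 of 27 members thus lay below 0 without the first chow array and 22 above 0 without the second.

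Markers of other cell types gave no gene that passed beside Cd14. All 4 tested cholangiocyte markers lay below 0 with a median of -0.51, and the summed signal of the 6 on the array was 875 to 1287 with the fats against 1357 and 1556 with chow. Krt18, also made by hepatocytes, was at -0.49 and Epcam at -0.54 (limma adjusted p = 0.445 and 0.695). Stellate and fibroblast markers summed to 1107 to 1412 with the fats and to 1221 and 1252 with chow, and endothelial markers to 1520 to 1973 and to 1832 and 2081. Dcn, the matrix proteoglycan decorin, was at 34.6 to 75.8 against 115 and 148 (-1.24, SE 0.22, limma adjusted p = 0.107). The part of these cells in the results was not tested.

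Differences among lard, olive oil and coconut fat were asked for with an F-test that does not use chow. It called 0 of 18625 probe sets, with 1225 (6.58%) at an unadjusted p under 0.05. Among the genes that passed against chow, the smallest adjusted p of this test was that of Gpt (limma adjusted p = 0.0709), with differences from chow of -1.25 for lard, -2.30 for olive oil and -0.58 for coconut fat, each with an SE of 0.19. Sds had -3.69, -4.38 and -1.92 (limma adjusted p = 0.474), and Cyp3a9 -1.92, -3.01 and -1.70 (limma adjusted p = 0.481). In these 3 genes olive oil was farthest from chow and coconut fat nearest, but the differences among the fats did not pass. With 2 arrays a fat, a p that misses the threshold does not show that the fats act alike.

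Fish oil was set against the mean of the 3 fats to see which differences were particular to them. In that comparison 79 of 18625 probe sets passed (0.424%), 35 higher with fish oil (0.188%) and 44 lower (0.236%). With 1 array left out, 31 passed without lard array 1, 34 without fish oil array 2, 41 without coconut fat array 1 and 44 without either lard array 2 or fish oil array 1, against up to 113 without chow array 1. Among the 10 genes, Cd14 alone passed, with 1187 and 1285 on the fish oil arrays, above both chow arrays, and a difference of 1.71 (SE 0.20, limma adjusted p = 0.00494). It passed in 9 of the 10 fits that left out an array, missing the threshold without fish oil array 2 (limma adjusted p = 0.0682). For Got1, Gpt and Sds fish oil gave 572 and 567, 990 and 689.6 and 129.6 and 199.7. These signals are below the chow arrays of the same genes, and the differences from the 3 fats were 0.41, 0.12 and 1.08 (limma adjusted p = 0.425, 0.839 and 0.292). Mettl7b (1125 and 974) and Insig2 (2847 and 2713) were also below both chow arrays with fish oil. Their differences from the 3 fats were 0.35 and 0.17 (limma adjusted p = 0.315 and 0.568). Cyp3a9 (1.01, limma adjusted p = 0.0816), Tsc22d1 (-0.80, limma adjusted p = 0.15) and Slpi (limma adjusted p = 0.542) had mean signals between those of the fats and chow, without passing. Of the drug-metabolising genes, 18 of 20 were above the 3 fats with fish oil (median 0.61), and Aldh1a1 (1.92), Ugt2b1 (2.54), Ces2c (1.34) and Gsta3 (3.73) passed (limma adjusted p = 0.00541, 0.0275, 0.0235 and 0.0477). Each of the 4 missed the threshold without either fish oil array, and Ugt2b1, Ces2c and Gsta3 also without either lard array, Ugt2b1 without olive oil array 1, Ces2c without coconut fat array 1 and Gsta3 without either coconut fat array. In the amino acid list the median against the 3 fats was -0.07, and Aspg, a liver asparaginase (-1.23), and Dmgdh, a choline breakdown enzyme (-0.72), were lower with fish oil (limma adjusted p = 0.0117 and 0.0433). Aspg passed in 9 and Dmgdh in 2 of the fits that left out an array, Aspg missing the threshold without fish oil array 2 and Dmgdh without any one of the arrays of the 4 fats. Fatty acid synthesis genes lay below the 3 fats on 19 of 21 members (median -0.66), and none passed.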

How the data were processed

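Total RNA of fasted rat liver was labelled as biotinylated cRNA and hybridised to Affymetrix arrays, per the labels' protocols. The deposited values are signal intensity computed by the authors with MAS5, per the submitters' processing notes; its version is not given in the sources used here. The table held 31099 probe sets, from which 57 controls were taken out. An offset of 3.1, the signals' 10th percentile, was added before taking log2. The dimmest 40% of probe sets by mean log2 value (a signal near 17.8) were left out, 12417 in all. No further scaling was applied. Symbols came from the platform annotation (20826 probe sets with 1 symbol, 436 with several, 9780 with none), checked by gene identifier against RefSeq, which changed 0.

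Diet means of the 10 arrays were estimated in 1 model with limma 3.58.1 (R 4.3.3), whose 5 residual degrees of freedom gained 5.96 from the trended empirical Bayes prior. P-values were adjusted by Benjamini-Hochberg over 18625 probe sets. Genes named were those that passed, filled to 10 a direction by the smallest p among genes whose arrays did not overlap, plus up to 4 passing or else 2 extreme members of each list; further list members are named to describe the lists. Of 573 listed names in 24 pathway and 11 marker lists, 508 were on the array. Members and lists were chosen with earlier results of these data known. In simulated data for this contrast with 18625 probe sets, limma called 37 of 100 probe sets with a true log2 change of 1, 68 of 100 with a change of 2, and 7 that had none. The simulated noise was normal and independent between probe sets. It lacked the shared difference between the 2 chow arrays seen in several lists, so these rates need not hold for the measured data. Alternatives were quantile normalization, a common 75th percentile, the 25th percentile as offset, a floor on dim signals, a filter on 60% of probe sets or on none, a robust prior, a prior without trend, an adjusted p of 0.10, a model with only the compared diets, the 3 fats as 1 group of 6, the replicate number as a block, and each array left out. List counts without either chow array were added after the data were seen. Over all tested probe sets, deviations of same-numbered arrays correlated at -0.0333 to 0.0756, highest between fish oil and chow. A correlation over all probe sets cannot show whether the numbers pair the arrays for some of the genes.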

Additional observations from a re-analysis of the deposited data

Results flagged for a closer look

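In 10 of 73 named probe sets, 1 of the 6 arrays of the 3 fats stood far from the other 5, by a gap above Dixon's 95% critical value. That value assumes 6 draws from 1 normal population. These are linear signals of 3 diets, for probe sets named by their values, so its rate of 1 in 20 does not apply. Slpi, which passed against chow, was at 21.3 on the second coconut fat array and at 151.7 to 289.3 on the others. The first olive oil array was low for Ppp1r3b, a glycogen-targeting phosphatase subunit (737.9 against 1523.1 to 2117.1), for Nr0b2, the bile acid-induced repressor SHP (419.1 against 612.4 to 723.9), and for Lox, a collagen cross-linking enzyme (19.4 against 136.9 to 192). The second olive oil array was low for the metallothionein Mt2A (177.5 against 498.3 to 896.5), for Cdk1, a mitotic kinase (8.7 against 22.7 to 30.7), and for Slc4a1, the red cell anion exchanger (21.7 against 51.3 to 74.7). Txnrd1, a thioredoxin reductase, was high on the second coconut fat array (588.9 against 296.4 to 383.2). On the lard arrays, RT1-Bb was low on the first (2.3 against 64.5 to 231.3) and the T cell marker Cd2 on the second (10 against 19.6 to 27.1). None of these genes but Slpi passed against chow.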

How the results depend on the processing

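Against chow, 10 probe sets passed; the alternatives gave 6 with quantile normalization, 0 without an intensity trend (1334 at an unadjusted p under 0.05), 24 at a threshold of 0.10, 17 with only the diets compared and 2 to 17 with 1 array left out, lowest without chow array 1. With the 3 fats as 1 group of 6, 8 passed, 3 of them among the 10. All 10 genes kept their direction under every alternative that tested them. Among the 3 fats, 0 passed; the count was 3 with the 75th percentile shift, 2 with a robust trend, 3 at 0.10, 1 with only the diets compared and 0 to 2 with an array left out. For fish oil against the 3 fats, 79 passed; the count was 6 without the trend, 208 at 0.10, 120 with only the diets compared and 31 to 113 with an array left out (34 and 44 without either fish oil array). With the 75th percentile shift 79 passed, 70 of them shared, 44 higher and 35 lower against 35 and 44. With the replicate number as a block, 10, 0 and 60 passed. Over the named probe sets, 8 of 1591 alternative values changed sign. With an array left out, Abcg5 (-1.79) spanned -3.68 to 0.11 and Ccnd1 (-0.61) -1.37 to 0.16, highest without chow array 1, and Nr0b2 (1.09) spanned -0.11 to 2.29, Nkg7 (0.41) -0.31 to 1.12 and Cela1 (0.38) -0.58 to 1.35, lowest without chow array 2. Slc4a1 (-0.18) spanned -0.46 to 0.094, above 0 without olive oil array 2 or chow array 2 (0.012), and S100a9 (0.25) -0.017 to 0.51, below 0 without olive oil array 1. None of these had passed, and the cause was not tested. Of 804 alternative list medians, 13 moved by more than the members' median SE. For Slpi, Ugt2b and Prps2, with 1 side at or below 12.8, signals limit the fold to a bound.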

Other observations

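Gys2, liver glycogen synthase, was at 236 and 237 on the lard, 280.2 and 282 on the olive oil and 259.7 and 297 on the coconut fat arrays, against 405 and 410.2 with chow (-0.62, SE 0.13, limma adjusted p = 0.223), and Gys2 was the 1 member of 15 glycolysis and glycogen genes with all 6 fat arrays below chow (5.06% of all genes). Ppp1r3b, which brings a phosphatase to glycogen, was at 738 to 2117 against 631 and 810.1 (1.04, limma adjusted p = 0.302), groups that overlap. The list's median was -0.02, -0.15 without chow array 1 and 0.18 without chow array 2. In the insulin and IGF list (21 genes, median 0.0071, -0.05 without chow array 2), Foxo1 and Foxo3, transcription factors that insulin keeps out of the nucleus, had all 6 fat arrays above chow (4.82% of all genes), at 74.8 to 106 against 42.2 and 64.3 and at 203 to 376 against 180 and 156 (limma adjusted p = 0.391 and 0.473). Of 13 clock genes, Cry1, Clock and Dbp lay below chow on all 6 fat arrays (5.06% of all genes, -0.57, -0.33 and -1.17) and Npas2, a paralog of Clock, above (0.77), and none passed. The clock list's median was 0.04, 0.22 without chow array 1 and -0.25 without chow array 2.

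Among genes of endoplasmic reticulum stress (20, median -0.01, -0.07 without either chow array), Dnajb9, a chaperone of the unfolded protein response, was at 329 to 385 against 508 and 548 (-0.57, limma adjusted p = 0.306). Lipc, hepatic lipase, was the 1 of 19 lipoprotein genes (median 0.06) with all 6 fat arrays above chow (4.82% of all genes). Its signals were 3104 to 3806 against 2358 and 2952 (0.38, limma adjusted p = 0.437). Medians were 0.17 for lipid droplet genes (20), 0.07 for other PPAR-alpha targets (17), -0.16 for antioxidant genes (18) and 0.09 for cell cycle genes (12), and none of their members passed. Without chow array 1 these medians were 0.09, 0.17, -0.0046 and 0.15, and without chow array 2 they were 0.22, 0.04, -0.18 and 0.11. Mt2A, a metallothionein, was at 178 to 896 with the 3 fats, 805 and 712 with chow and 2700.3 and 4412 with fish oil (fish oil minus the 3 fats 2.68, limma adjusted p = 0.00453, lost without fish oil array 2). Of the remaining marker lists, medians were 0.07 for lymphocytes (6 tested, Cd3d and Cd79b at or below the bound on all arrays), 0.25 for neutrophils (1 tested), 0.17 for erythrocytes (3), 0.42 for adipocytes (2), 0.26 for skeletal muscle (1) and 0.04 for pancreatic acinar cells (2 tested, 0.42 without chow array 1 and -0.34 without chow array 2).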
